A study of Mus musculus with 8 samples.

Results

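The hepatocyte lineage transcription factors followed here are Hnf4a, Foxa1, Foxa2, Foxa3, Cebpa, Prox1, Nr1h4, Nr5a2 and Gata4, chosen by name as DNA-binding regulators of liver cell identity, with no threshold on their measured values but with earlier results of these data known. All 9 were found by symbol in the deposited table, which holds 18671 genes. They were measured by RNA-seq in BMEL cells, a line of bipotential mouse embryonic liver cells that can give rise to both hepatocytes and biliary cells. The 4 pIGrhl2 samples were transfected with a plasmid for the epithelial transcription factor GRHL2, and the 4 pcDNA samples with the control vector pcDNA3. Both groups were grown on collagen in medium with IGFII, EGF and insulin and were harvested at 48 h. The pIGrhl2 construct carries the human GRHL2 cDNA fused to a Flag tag behind the EEF1A1 promoter and also encodes EGFP, so that the plasmids of the groups differ by more than GRHL2. The question is whether expression of these regulators differed between cells with and without ectopic GRHL2.

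Hepatocyte identity is held by a network of transcription factors that bind one another's genes as well as those of plasma proteins and metabolic enzymes. FOXA proteins are forkhead pioneer factors that open chromatin in the endoderm before liver genes are active, and GATA4 acts beside them in the early liver bud. HNF4A, a nuclear receptor, and CEBPA, a leucine zipper factor, drive the later hepatocyte programme, while PROX1 is needed for hepatoblasts to spread out of the bud. NR1H4 (FXR) is the bile acid receptor, and NR5A2 (LRH-1) takes part in bile acid synthesis genes.

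Prox1 and Foxa1 were called higher in pIGrhl2 samples, Gata4 was called lower, and the other 6 factors did not pass the test. Prox1 was 1.39-fold higher, Foxa1 was 1.16-fold higher and Gata4 was at 0.818 times its pcDNA level. Hnf4a and Foxa2, which had the highest levels of the 9, differed by -0.0029 and 0.051 on the log2 scale. All values are log2 values per transcript length as deposited, differences are pIGrhl2 minus pcDNA, and a gene was called at an adjusted p under 0.05 in limma fitted to the whole table. The 2 factors called higher are 22.2% of the 9, beside 10.5% of all genes, and the 1 called lower is 11.1%, beside 5.91% of all genes. The median difference of the 9 was 0.097, compared with 0.0066 over all genes. With the replicate number as a block, which the replicate numbering of the labels allows, 4 factors were called higher and 1 lower, beside 18.2% and 13.9% of all genes. These are bulk samples, in which fewer cells expressing a factor and less of its RNA per cell cannot be told apart, and the share of transfected cells was not analysed here.

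**Figure D1:**
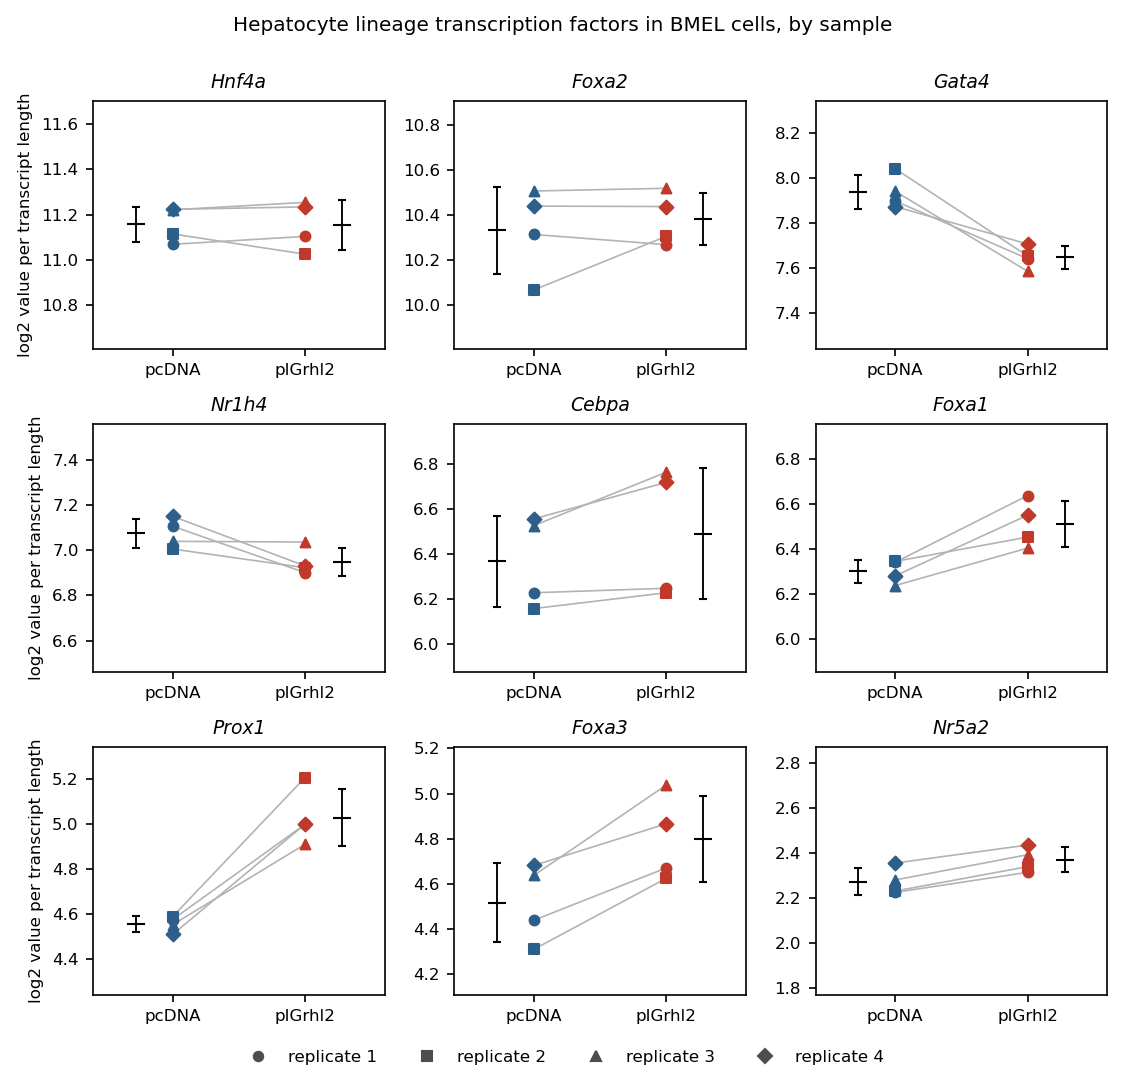
Log2 value per transcript length of each of the 9 factors in the 4 pcDNA (blue) and 4 pIGrhl2 (red) samples, with grey lines joining samples of the same replicate number and black bars giving the mean ± SD. Every panel spans the same range of 1.1 log2 units, so Prox1, Foxa1 and Gata4 can be seen to separate by group, while Cebpa separates replicates 1 and 2 from replicates 3 and 4.

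The transfection itself was checked first. Grhl2 stood at 4.68, 4.57, 4.42 and 4.44 in pcDNA replicates 1 to 4 and at 6.30, 6.96, 5.65 and 6.05 in pIGrhl2 replicates 1 to 4. All pIGrhl2 samples lay above all pcDNA samples, by 1.71 on average (adjusted p = 0.0010 in limma), though the table lists mouse genes and the share of plasmid reads in this value is unknown. Cldn4, a tight junction claudin known as a GRHL2 target, was also 1.71 higher (adjusted p = 3.24e-06 in limma). Medians of the 8 samples ranged from 6.42 to 6.49. Replicates 3 and 4 were the closest pair within each group, with no identical values, and the study describes the 4 replicates as independent. Depth is unknown.

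In pcDNA cells the 9 factors spanned a wide range of levels per length, from a mean of 11.16 for Hnf4a to 2.27 for Nr5a2. Hnf4a lay at the 95th percentile of all genes and Foxa2, at 10.33, at the 90.2nd. Gata4 (7.94) and Nr1h4 (7.08) followed, then Cebpa (6.37) and Foxa1 (6.30), then Prox1 (4.56) and Foxa3 (4.52). Sample ranges of neighbours in this order overlapped only for Cebpa with Foxa1 and for Prox1 with Foxa3. In pIGrhl2 cells the order was the same except that Foxa1 (6.51) came above Cebpa (6.49), and the same neighbours overlapped. The lowest factor, Nr5a2, lay at the 22.8th percentile. Its value with the log2 of its transcript length in kb added back was 3.45, above the 1st percentile of the table at 0.33. If the transform named in the study's methods was used for these samples, it shrinks differences of genes with few reads, and the fold changes of low genes would be understated. How far this holds for Nr5a2 and Foxa3 was not tested.

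Of the FOXA family, Foxa1 was called higher in pIGrhl2 cells without the block, while Foxa3, described below, differed by more (0.28) but was not. Foxa1 (chr12:57540628-57546916 on GRCm38, minus strand) stood at 6.34, 6.34, 6.24 and 6.28 in pcDNA replicates 1 to 4 and at 6.64, 6.45, 6.40 and 6.55 in pIGrhl2 replicates 1 to 4. The groups did not overlap, since the lowest pIGrhl2 sample lay above the highest pcDNA sample, and the gap was small. The difference was 0.21 (SE 0.057, 95% interval 0.084 to 0.34, adjusted p = 0.032 in limma), and it was 0.20 within replicates 1 and 2 and 0.22 within replicates 3 and 4. The exact permutation test over the samples gave p = 0.0286, the smallest that 4 against 4 samples allow. The call was kept in 3 of the 8 fits that left out a sample. It was lost without pIGrhl2 replicate 1 (0.17, adjusted p = 0.0746 in limma) or 4 (0.20, 0.0771), and without pcDNA replicate 1 (0.22, 0.0598), 3 (0.19, 0.0823) or 4 (0.20, 0.0697). It was also lost after correction for GC content, where the difference was 0.15 (adjusted p = 0.123 in limma).

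Foxa2 (chr2:148042877-148046969, minus strand), the most abundant FOXA gene here, did not pass the test. Its values were 10.31, 10.07, 10.51 and 10.44 in pcDNA replicates 1 to 4 and 10.27, 10.30, 10.52 and 10.44 in pIGrhl2 replicates 1 to 4. The groups overlapped, and the lowest of the 8 samples was pcDNA replicate 2. The difference was 0.051 (SE 0.095, 95% interval -0.16 to 0.26, adjusted p = 0.767 in limma), with 2 replicate pairs higher and 2 lower. Without pcDNA replicate 2 it turned to -0.037.

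Foxa3 (chr7:19013284-19023538, minus strand), a forkhead factor known to act in adult liver, was higher in every replicate pair but was not called without the block. It stood at 4.44, 4.31, 4.64 and 4.68 in pcDNA replicates 1 to 4 and at 4.67, 4.62, 5.04 and 4.87 in pIGrhl2 replicates 1 to 4. Replicates 3 and 4 were higher than 1 and 2 in both groups, so that the groups overlapped while the pairs differed by 0.23, 0.31, 0.40 and 0.19. The difference was 0.28 (SE 0.10, 95% interval 0.050 to 0.52, adjusted p = 0.0942 in limma). With the replicate block its interval was 0.19 to 0.38 and it was called (adjusted p = 0.00141 in limma).

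Foxa2 exceeded Foxa3 by 5.81 ± 0.066 (SD, n = 4) in pcDNA cells and by 5.58 ± 0.083 in pIGrhl2 cells on the log2 scale per length, and it exceeded Foxa1 by 4.03 ± 0.24 and 3.87 ± 0.20. Foxa1 exceeded Foxa3 by 1.78 ± 0.22 and 1.71 ± 0.26. The order of the 3 FOXA genes was thus the same in both groups, with Foxa2 far above the others.

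**Figure D2:**
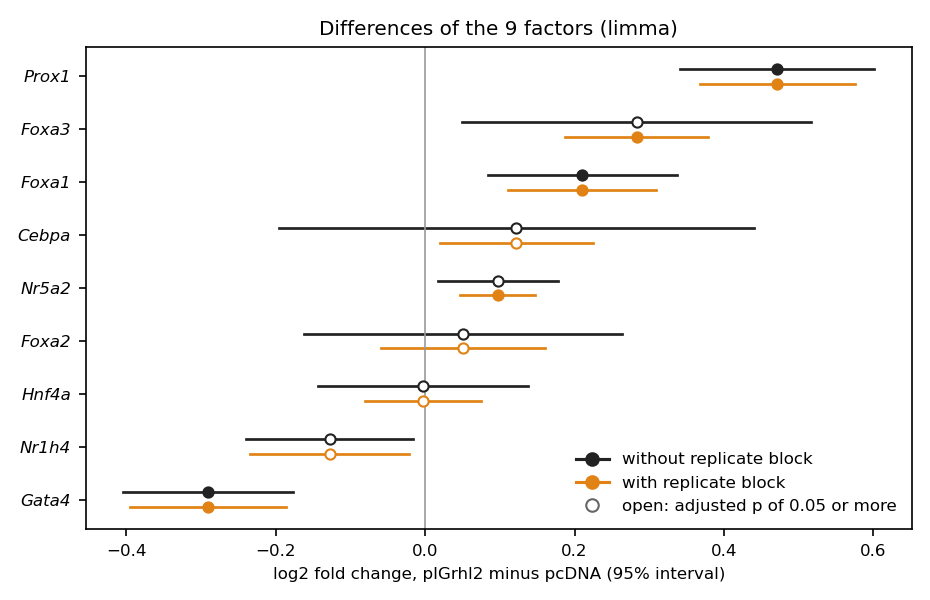
Difference of each factor between pIGrhl2 and pcDNA samples on the log2 scale, with its 95% interval from limma without (black) and with (orange) the replicate block. Filled points mark an adjusted p under 0.05, which Prox1, Foxa1 and Gata4 reached in both fits and Foxa3 and Nr5a2 only with the block.

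Prox1 had the largest difference of the 9. Prox1 (chr1:190118035-190170714, minus strand) encodes a homeodomain-related factor of hepatoblasts, lymphatic endothelium and other tissues. Its values were 4.58, 4.59, 4.55 and 4.51 in pcDNA replicates 1 to 4 and 5.00, 5.21, 4.91 and 5.00 in pIGrhl2 replicates 1 to 4. The pcDNA samples were within 0.1 of one another and all pIGrhl2 samples lay above them. The difference was 0.47 (SE 0.058, 95% interval 0.34 to 0.60, adjusted p = 0.00076 in limma), which ranked 328 by size among the 18671 genes. It was 0.52 within replicates 1 and 2 and 0.42 within replicates 3 and 4, and the exact permutation test over samples gave p = 0.0286. Its call held in all 17 alternative fits, with differences of 0.41 to 0.51.

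Pecam1, Kdr, Cdh5, Tek and Stab2, the markers of endothelium that the table holds, were examined beside Prox1, since lymphatic endothelium also expresses it. Of these 5 genes limma called 0, with 2 higher and 1 lower at an unadjusted p under 0.05, and 2 higher (Kdr and Tek) with the block, beside 18.2% of all genes. Kdr was also called higher at an equal sum (0.16) and with GC correction and the block (0.14). Pecam1 was called lower with a term for replicates 1 and 2 against 3 and 4 (-0.078). The list's summed level was 4.57 to 4.60 in pcDNA and 4.54 to 4.66 in pIGrhl2 samples. The 3 highest were Pecam1 (3.33 in pcDNA and 3.25 in pIGrhl2 cells), Kdr (2.31 and 2.45) and Stab2 (1.80 and 1.82). The sums of the groups overlapped. Whether any endothelial cells were present, and their part in the Prox1 difference, was not tested.

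For the promoter sequences of Foxa1 and Prox1, the factors called higher, the 250 bases before a RefSeq transcript start on GRCm38.p6 are shown 5′ to 3′ on the gene's strand. The windows are chr12:57546112-57546361 and chr1:190170828-190171077, both on the minus strand. The Foxa1 window lies within the gene span given above, so it precedes an internal start. For Prox1 a further window, chr1:190169516-190169765, is not shown. Capitals mark a match to the forkhead motif, searched as TGTTTAC on both strands. This window of Foxa1 is itself in a forkhead gene.
Foxa1: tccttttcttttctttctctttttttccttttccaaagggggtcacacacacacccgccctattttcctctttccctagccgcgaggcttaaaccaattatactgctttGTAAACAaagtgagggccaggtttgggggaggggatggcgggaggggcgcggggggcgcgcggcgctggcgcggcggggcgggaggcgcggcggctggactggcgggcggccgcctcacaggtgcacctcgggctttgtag
Prox1: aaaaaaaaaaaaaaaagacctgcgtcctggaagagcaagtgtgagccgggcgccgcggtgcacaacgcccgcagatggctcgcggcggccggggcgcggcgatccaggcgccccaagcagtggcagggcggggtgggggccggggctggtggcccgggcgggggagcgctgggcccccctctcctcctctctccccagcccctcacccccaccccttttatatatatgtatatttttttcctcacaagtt

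The search also used AACCNGTT for grainyhead factors, the family of GRHL2, and CAAAGTCCA for HNF4. RefSeq windows were found for 8 of the 9 factors, 13 in all, and Gata4 was the factor without an entry. The Foxa1 window shown held the only forkhead match, starting at base 110 as GTAAACA, the reverse complement of the letters searched. Neither of the other motifs was found in the 13 windows. A window of Cldn4, named above as a known GRHL2 target, held no grainyhead match either. Among 32851 promoter windows of the same length, 1.79% held the grainyhead letters, 3.17% the forkhead letters and 0.384% the HNF4 letters. With a single match, no motifs overlapped in these windows.

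Gata4 was the only factor called lower. Gata4 (chr14:63198922-63271692, minus strand) encodes a zinc finger factor of the liver bud and its surrounding mesenchyme. It stood at 7.90, 8.04, 7.94 and 7.87 in pcDNA replicates 1 to 4 and at 7.64, 7.65, 7.59 and 7.71 in pIGrhl2 replicates 1 to 4. Every pIGrhl2 sample lay below every pcDNA sample, with the pairs differing by -0.26, -0.39, -0.35 and -0.17. The difference was -0.29 (SE 0.051, 95% interval -0.40 to -0.18, adjusted p = 0.00456 in limma), and the exact permutation test gave p = 0.0286. It was -0.32 within replicates 1 and 2 and -0.26 within replicates 3 and 4, and all 17 alternative fits called it, at -0.32 to -0.26.

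Markers of mesenchyme, where GATA4 is also known, moved in part with the groups. The mesenchymal and stellate list had 8 of 10 genes in the table, of which 2 (25.0%) were called higher and 1 (12.5%) lower, beside 10.5% and 5.91% of all genes. Vim, the intermediate filament of mesenchymal and many cultured cells, fell from 15.28 to 14.92 (difference -0.37, adjusted p = 0.000614 in limma). Reln (0.91 to 1.01) and Pdgfrb (-0.23 to -0.12) rose by 0.11 each at low levels. Col1a1 stood at 5.22 and 5.35, and Des at 3.50 and 3.47, with neither called without the block and Col1a1 called higher with it (adjusted p = 0.0281 in limma). The summed level of the list, carried by Vim, was 15.23 to 15.39 in pcDNA and 14.88 to 15.00 in pIGrhl2 samples, and its part in the Gata4 difference was not tested.

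Of the nuclear receptors, Hnf4a (chr2:163506808-163572910, plus strand) was nearly level between groups. It stood at 11.07, 11.11, 11.22 and 11.22 in pcDNA replicates 1 to 4 and at 11.10, 11.02, 11.25 and 11.23 in pIGrhl2 replicates 1 to 4. The groups overlapped fully, and in both groups replicates 3 and 4 were the higher ones. The difference was -0.0029 (SE 0.063, 95% interval -0.14 to 0.14, adjusted p = 0.983 in limma). Its sign changed with scaling and with the sample left out, from -0.036 to 0.040.

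Nr1h4 (chr10:89454234-89533585, minus strand) was lower in every pair but was not called. It stood at 7.11, 7.01, 7.04 and 7.15 in pcDNA replicates 1 to 4 and at 6.90, 6.92, 7.04 and 6.93 in pIGrhl2 replicates 1 to 4. Replicate 3 was nearly equal in both groups, with a pair difference of -0.0027, and the groups overlapped through it. The difference was -0.13 (SE 0.050, 95% interval -0.24 to -0.017, adjusted p = 0.111 in limma), with p = 0.0571 in the exact permutation test.

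Nr5a2 (chr1:136842571-136960448, minus strand) was the lowest of the factors and had the smallest difference that any fit called. It stood at 2.22, 2.23, 2.28 and 2.35 in pcDNA replicates 1 to 4 and at 2.31, 2.34, 2.39 and 2.43 in pIGrhl2 replicates 1 to 4. The groups overlapped, and each pIGrhl2 sample lay above the pcDNA sample of its number. The difference was 0.097 (SE 0.036, 95% interval 0.017 to 0.18, adjusted p = 0.0954 in limma), and with the replicate block its adjusted p was 0.0107. Without pcDNA replicate 4 it was 0.12 and was called (adjusted p = 0.0387 in limma).

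Cebpa (chr7:35119293-35121928, plus strand) varied more by replicate number than by plasmid. Its values were 6.23, 6.16, 6.53 and 6.56 in pcDNA replicates 1 to 4 and 6.25, 6.23, 6.76 and 6.72 in pIGrhl2 replicates 1 to 4. Replicates 3 and 4 lay above replicates 1 and 2 in both groups, by 0.35 in pcDNA and by 0.50 in pIGrhl2 cells. The plasmid difference was 0.12 (SE 0.14, 95% interval -0.20 to 0.44, adjusted p = 0.608 in limma), and it was 0.045 within replicates 1 and 2 and 0.20 within replicates 3 and 4. All 4 pairs were higher, and the factor was not called with the block either (adjusted p = 0.0694 in limma). The difference was 0.061 after correction for GC content, and leaving out a sample gave 0.031 (pIGrhl2 replicate 3) to 0.21 (pIGrhl2 replicate 2), not called in any of these fits.

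**Figure D3:**
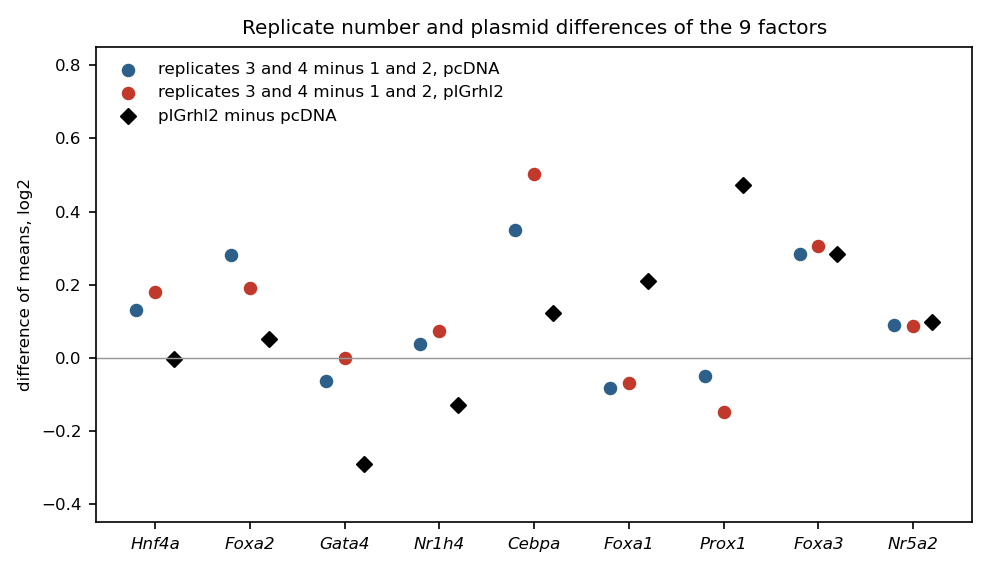
Mean of replicates 3 and 4 minus mean of replicates 1 and 2 for each factor in pcDNA (blue) and pIGrhl2 (red) cells, with the plasmid difference (black), all on the log2 scale. Cebpa, Foxa2, Hnf4a and, by a small margin, Foxa3 shifted more by replicate number than by plasmid in both groups, while Prox1, Foxa1 and Gata4 did the reverse.

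The split by replicate number was seen across the factors. In both groups 6 of the 9 (66.7%) were higher in replicates 3 and 4, beside 30.3% of all genes, and the other 3 (33.3%) were lower, beside 40.6%. The shifts were 0.29 and 0.31 for Foxa3 and 0.28 and 0.19 for Foxa2, in pcDNA and pIGrhl2 cells respectively. For 4 of the 9 factors (44.4%) the shift was larger than the plasmid difference in both groups, beside 34.7% of all genes. The labels do not say what replicates 1 and 2, or 3 and 4, share.

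Over replicate pairs, 5 of the 9 factors were higher in all 4 pairs (55.6%, beside 27.3% of all genes) and 2 were lower in all 4 (22.2%, beside 21.3%). All 4 pIGrhl2 samples lay above all 4 pcDNA samples for 2 factors, Prox1 and Foxa1, as for 14.3% of all genes, and below them for Gata4 alone, as for 9.47% of all genes.

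**Figure D4:**
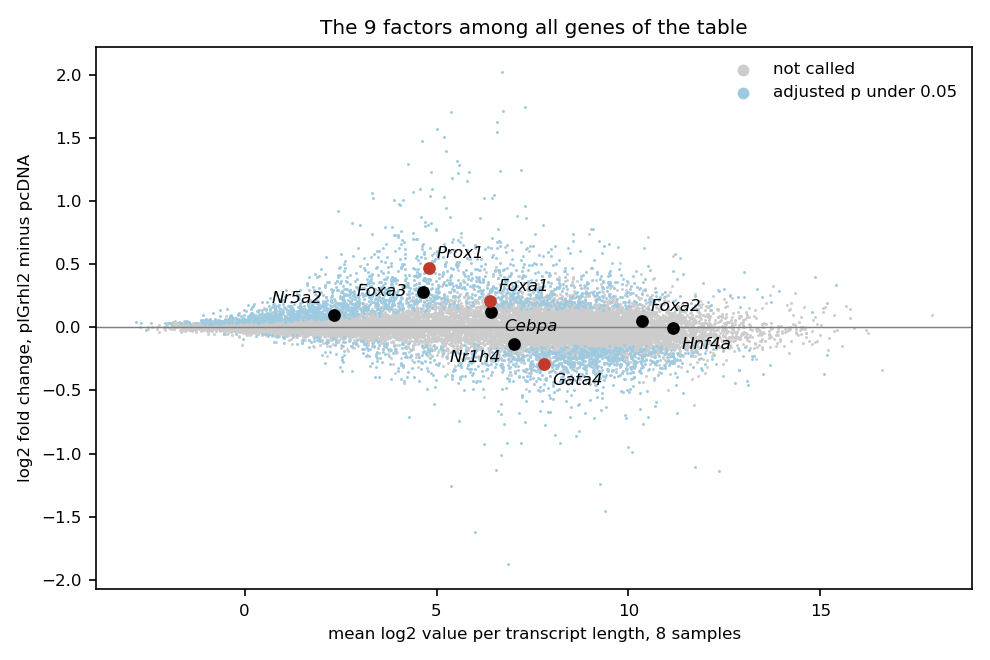
Difference between pIGrhl2 and pcDNA samples (log2) against the mean log2 value per transcript length over the 8 samples for all 18671 genes, with genes called by limma in light blue and the 9 factors labelled. The 3 called factors (red) differ by -0.29 to 0.47, within a cloud whose largest differences lie near 2.

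Paralogs of the factors, which share their DNA-binding domains, moved in both directions. Of 28 listed, 22 were in the table, and 4 (18.2%) were called higher, beside 10.5% of all genes, and 4 (18.2%) lower, beside 5.91%, with a median difference of 0.028. Nr5a1, the steroidogenic paralog of Nr5a2, rose by 0.63 from 3.29 to 3.92 (SE 0.067, adjusted p = 0.000361 in limma). Gata2, known from blood and endothelium, rose by 0.58 from 3.90 to 4.48 (SE 0.051, adjusted p = 0.000163 in limma). Cebpd and Foxf1 were the other paralogs called higher, by 0.19 and 0.14. Thus the largest increases in the NR5A and GATA families were in genes other than the 9 factors.

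Among the other GATA genes expressed here, Gata6 had the highest level, 9.95 in pcDNA and 9.98 in pIGrhl2 cells (difference 0.033, 95% interval -0.072 to 0.14, adjusted p = 0.682 in limma). Gata5 (6.94 and 7.02) and Gata3 (6.83 in pcDNA, 0.17 higher in pIGrhl2 cells) were not called. These values were chosen for display after being seen, as the other members of the GATA family that had the highest levels.

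Of the C/EBP paralogs, Cebpb, an acute-phase and stress-responsive factor, fell from 8.05 to 7.63 (difference -0.41, SE 0.044, adjusted p = 0.000362 in limma). Its pcDNA samples stood at 8.05, 8.05, 8.08 and 8.01 and its pIGrhl2 samples at 7.68, 7.56, 7.65 and 7.65. The groups were far apart beside their spread. Cebpg fell by 0.29 from 9.62, and Cebpd rose from 2.86 to 3.05. Among forkhead paralogs Foxo3 fell by 0.29 and Foxk1 by 0.19, the latter a call that held without pcDNA replicate 1 (-0.23) and was lost without any other sample (-0.22 to -0.16). The Foxk1 call was also lost at an equal sum or upper quartile (-0.17 in each) and with replicates 3 and 4 averaged (-0.19).

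Other regulators of the hepatocyte network were called at shares near those of all genes. Of 28 listed, 27 were in the table, and 3 (11.1%) were called higher, beside 10.5% of all genes, and 2 (7.41%) lower, beside 5.91%, with a median difference of 0.045. Rxra, the partner of NR1H4 and other receptors, rose from 8.72 to 8.92 (difference 0.21, adjusted p = 0.0116 in limma). Nr2f1, an orphan receptor, rose by 0.20 from 6.27, and Cebpd was the third. Cebpb and Zbtb20, a repressor of Afp, fell, the latter by 0.33 from 7.85 (adjusted p = 0.0144 in limma). With replicates 3 and 4 averaged, Rxra (0.21) and Zbtb20 (-0.35) were not called. With the replicate block 7 were called higher and 4 lower, where 18.2% and 13.9% of all genes were called.

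**Figure D5:**
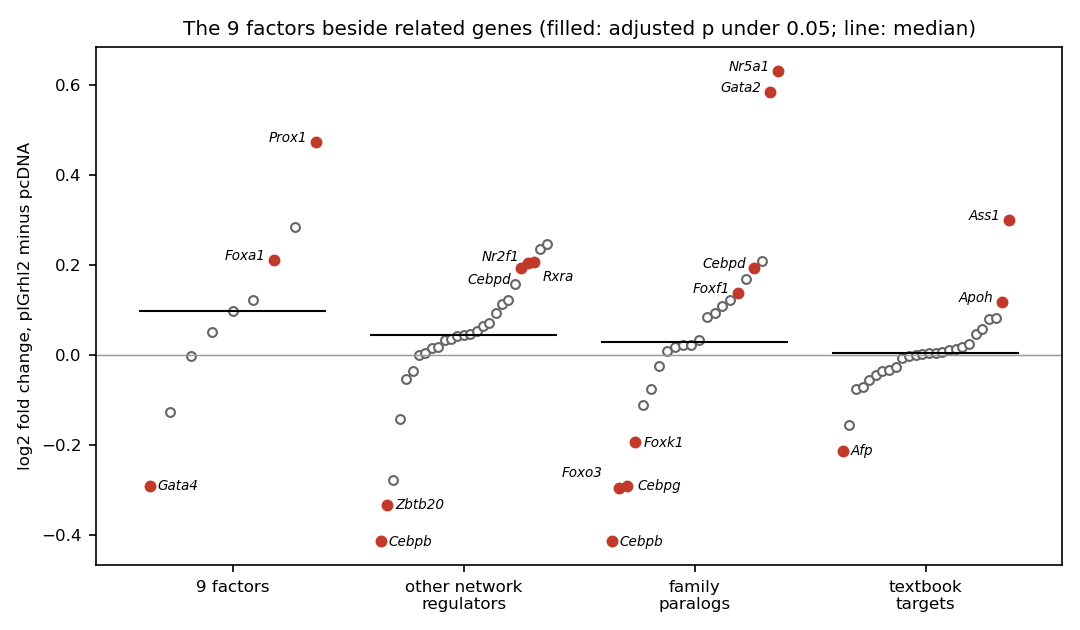
Difference between pIGrhl2 and pcDNA samples (log2) for the 9 factors and for the genes of the lists of other network regulators (27), family paralogs (22) and textbook targets (26), in rising order within each list. Filled points have an adjusted p under 0.05 in limma and black lines are medians, which lie between 0.0033 and 0.097.

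Textbook targets of the factors, such as plasma protein, urea cycle and bile acid genes, were mostly low. Of 39 listed, 26 were in the table, with a median level of 2.71 per length, compared with 6.43 for the 9 factors. Limma called 2 higher (7.69%, beside 10.5% of all genes) and 1 lower (3.85%, beside 5.91%), and the median difference was 0.0033. Afp, the albumin-like protein of fetal hepatoblasts, fell from 8.32 to 8.11 (difference -0.21, adjusted p = 0.0125 in limma). Ass1, a urea cycle enzyme, rose by 0.30 from 7.55 (adjusted p = 0.0233 in limma), and Apoh by 0.12 from 3.06 (adjusted p = 0.0486 in limma).

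The calls of Ass1 and Apoh were sensitive to single samples. Ass1 was not called without pcDNA replicate 1 (0.30), 2 (0.28) or 3 (0.30). Apoh was called without pIGrhl2 replicate 4 (0.15) and without no other sample (0.097 to 0.12). Their differences were 0.43 and 0.17 within replicates 1 and 2, and 0.17 and 0.060 within replicates 3 and 4. The Apoh call was also lost with GC correction (0.10), without the mean-variance trend (0.12) and with replicates 3 and 4 averaged (0.14).

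Some targets were given by level after their values were seen. Apob, the main apolipoprotein of liver lipoproteins and an HNF4A target, stood at 11.47 in both groups (difference 0.0040, 95% interval -0.31 to 0.31). Rbp4, the retinol carrier, stood at 13.56 and 13.41, and Alb at 5.25 and 5.18. Nr0b2 (SHP), induced by NR1H4 in hepatocytes, stood at 3.67 and 3.64 (difference -0.036, 95% interval -0.14 to 0.067, adjusted p = 0.644 in limma). None of these 4 was called without the block, and Rbp4 was called lower with it (adjusted p = 0.0303 in limma).

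The cells were checked against markers of their labelled type. Of 10 hepatoblast and hepatocyte markers, with Hnf4a among them, 8 were in the table, and Krt8 (15.31 in pcDNA and 15.41 in pIGrhl2 cells), Krt18 (14.76 and 14.82), Hnf4a and Afp were high. Alb, Ttr (4.91) and Apoa1 (3.90) were lower per length, and Cps1, a periportal urea cycle enzyme, lay at -0.65, among the 4.81% of values below 0. Their summed level, carried by Krt8 and Krt18, was 16.04 to 16.18 in pcDNA and 16.08 to 16.35 in pIGrhl2 samples. Limma called 0 higher, also at an unadjusted p under 0.05 and with the block. It called 1 lower (Afp, 12.5% of the list). Of all genes 10.5% were called higher and 5.91% lower, and with the block 18.2% and 13.9%.

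Cholangiocyte markers moved with the groups. All 9 were in the table, and 3 were called higher and 0 lower (7 and 0 at an unadjusted p under 0.05 in limma), beside 10.5% and 5.91% of all genes. With the block 8 were called higher and 0 lower, beside 18.2% and 13.9% of all genes. Epcam rose by 1.75 from 6.43, Cldn4 by 1.71 from 5.88 and Krt7 by 0.44 from 12.79. Krt19 (15.05 and 15.21) and Spp1 (10.88 and 11.45) were not called without the block. Both were called with it (adjusted p = 0.0109 and 6.96e-05 in limma). A term for replicates 1 and 2 against 3 and 4 also gave both calls. Krt19 was also called at an equal sum (0.19) or upper quartile (0.18) and without pcDNA replicate 2 (0.10). The summed level of the list, carried mainly by Krt19, was 15.21 to 15.50 in pcDNA and 15.61 to 15.71 in pIGrhl2 samples. Cftr was low at 0.72 and 0.77. The part of these genes, some of which GRHL2 is known to regulate, in the differences of Prox1, Foxa1 and Gata4 was not tested.

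Blood and immune markers were at lower levels. Of 8 listed, 6 were in the table and limma called 0, with Cd68 alone at an unadjusted p under 0.05 and called higher with the block. Of all genes 10.5% were called higher and 5.91% lower, and 18.2% and 13.9% with the block. Cd68 was also called at an equal sum or upper quartile (0.19 in each), and with GC correction and the block (0.14). A term for replicates 1 and 2 against 3 and 4 gave the call too (0.16). Leaving out pIGrhl2 replicate 2 (0.19) or pcDNA replicate 4 (0.20) also gave a call. Cd68 stood at 6.08 and 6.25, Csf1r at 4.48 and 4.45 and Cd79a at 2.85 and 2.85. Ptprc, the pan-leukocyte marker, lay at 0.90 and 0.88. The summed level was 6.57 to 6.76 in pcDNA and 6.75 to 6.82 in pIGrhl2 samples. Its part in the differences of the factors was not tested.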

How the data were processed

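RNA-seq was performed on 8 BMEL samples, 4 with the pIGrhl2 and 4 with the pcDNA3 plasmid, at 48 h. Groups and replicate numbers came from the labels. The values deposited by the authors are log2 values, although the table is named for FPKM: 7190 (4.81%) lie below 0. Per the study's methods, reads were mapped to mm10 with HISAT2, counted over exons by HTSeq ignoring strand, and genes whose reads summed to under 10 over the samples were dropped. The methods say that the authors divided rlog values from DESeq2 by mean transcript length (GRCm39). Here the values are read as rlog less log2 length, which is inferred and not stated: values plus log2 length in kb had a 1st percentile of 0.33, near the 0.32 that 10 reads over 8 samples give. The submitters' processing notes give HISAT2 2.2.1, HTSeq 0.9.1 and the authors' DESeq2 as 1.40.2, whereas the methods name other versions of HISAT2 and of the authors' DESeq2. The methods' description opens with public data, and its use for these samples is an assumption. Without strand, reads of a gene and of an overlapping antisense gene could not be told apart. Depth cannot be read from these values, so no counting interval is given.

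All 18671 genes were fitted with limma 3.58.1 in R 4.3.3, with no pseudocount or filter (2 groups, mean-variance trend, Benjamini-Hochberg adjustment, calls at an adjusted p under 0.05). Exact two-sided permutation tests over samples ran in SciPy 1.17.1. The fit was tested on simulated data with independent noise, which left out the split by replicate number. It recovered 9 of 50 changes of 0.1, 28 of 50 of 0.25, 46 of 50 of 0.5 and 50 of 50 of 1. There were 11 false calls among 18471 unchanged genes. Changes of 0.25 or less were thus often missed. Same-numbered samples deviated together over genes in all 4 pairs (r = 0.474, 0.565, 0.549 and 0.645, above the limit of 0.1 set for pairing), so the replicate numbers of the labels were taken as pairs. Samples of different numbers also deviated together within replicates 1 and 2 (0.436 and 0.344) and within 3 and 4 (0.602 and 0.500), and oppositely across them (-0.611 to -0.399), so the numbers are not told apart from that split. The 9 factors and the lists were chosen with earlier results of these data known. Genes named were the 9 factors, Grhl2 and Cldn4, up to 4 called genes per direction in each list (the 3 highest where none was called), the 3 highest of each marker list, and others said to be chosen after their values were seen. In the marker paragraphs Alb, Ttr, Apoa1, Cps1, Cftr, Ptprc, Cdh5 and Tek are also of that last kind. Gene positions were read from GENCODE M21 (GRCm38). Summed levels are log2 of the sum over a list's genes of the values taken out of log2. Alternatives were scaling to an equal upper quartile or sum, the replicate block, and a term for replicates 1 and 2 against 3 and 4. The latter is called the batch term here, though the labels name no batch. Others were differences within replicates 1 and 2 and within 3 and 4, each sample left out, no trend and a minimum mean of 0. Correction for GC content (lowess, span 0.3) with and without the block, and a minimum difference of 0.25, were also used. Averaging replicates 3 and 4, the closest pair, was added after seeing the data.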

Additional observations from a re-analysis of the deposited data

Results flagged for a closer look

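A distant sample was searched for in 84 groups of 4 values, with Dixon's test at 95%, and 3 were found where chance gives about 4.2. None was in the 9 factors. Ass1 stood at 7.49 in pcDNA replicate 2, below the other pcDNA samples at 7.56 to 7.57. Epcam stood at 8.31 in pIGrhl2 replicate 2, above the others at 8.13 to 8.14. Krt19 stood at 14.86 in pcDNA replicate 2, below the others at 15.10 to 15.11.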

How the results depend on the processing

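Prox1 and Gata4 were called in the same direction in 17 of 17 alternatives (adjusted p 8.63e-05 to 0.00632 and 0.00111 to 0.0200 in limma). In the exact test, sign flips within the replicate pairs gave p = 0.125, the smallest that 4 pairs allow, for Prox1, Foxa1 and Gata4. Foxa1 was called in 10 of 17, with adjusted p of 0.00705 to 0.123. Its difference was 0.15 with GC correction and 0.21 with replicates 3 and 4 averaged, not called in either, and 0.17 to 0.25 with a sample left out. The replicate block brought the calls of Foxa3 (0.28) and Nr5a2 (0.097) and changed no other call among the 9 factors. The batch term, for replicates 1 and 2 against 3 and 4, gave the same values and calls (0.28 and 0.097). GC correction with the replicate block gave the same calls (0.26 and 0.099). Nr5a2 was also called at an equal upper quartile (0.12) and ranged from 0.075 to 0.12 with a sample left out. Hnf4a turned to 0.021 at an equal sum and to 0.020 at an equal upper quartile, and ranged from -0.036 to 0.040 with a sample left out. Foxa2 turned to -0.0044 with GC correction, with and without the replicate block, and ranged from -0.037 to 0.11 with a sample left out. Factors called higher numbered 4 with the replicate block, alone or with GC correction, and with the batch term, 1 with GC correction, with replicates 3 and 4 averaged and beyond 0.25, and 1 to 2 with a sample left out. Genes called higher numbered 1957, and 3396 with the replicate block, 3122 with GC correction added, 3270 with the batch term, 3064 at an equal upper quartile and 807 beyond 0.25. Those called lower numbered 1104, and 2589, 2726 and 2478 in the first 3 of these, 521 with replicates 3 and 4 averaged, 575 beyond 0.25 and 690 to 1036 with a sample left out (722, 690 and 719 without pIGrhl2 replicate 1, 3 or 4, and 691 without pcDNA replicate 1). Higher calls made up 63.9% of all calls as deposited, 75.9% at an equal upper quartile and 77.0% at an equal sum, which moved the median difference of all genes from 0.0066 to 0.029 and 0.031. Other network regulators called higher numbered 7 with the replicate block, 6 with GC correction added, 6 with the batch term and 0 beyond 0.25. Those called lower numbered 4, 5 and 4, and 1 with replicates 3 and 4 averaged. Paralogs called higher numbered 2 beyond 0.25. Targets called higher numbered 1 with GC correction, without the trend, with replicates 3 and 4 averaged and beyond 0.25, and 0 to 2 with a sample left out. Those called lower numbered 2 with the replicate block, 3 with GC correction added, 2 with the batch term and 0 beyond 0.25. Of the markers, Krt18 ranged from -0.0049 to 0.11, Des from -0.069 to 0.00017 and Csf1r from -0.11 to 0.0062 with a sample left out. Cd79a turned to 0.016 at an equal sum, 0.014 at an equal upper quartile and 0.0029 with replicates 3 and 4 averaged, and ranged from -0.028 to 0.012 with a sample left out. The cause of these changes was not tested, beyond the fewer samples in fits that left samples out. Depth is unknown, so what it limits cannot be stated.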

Other observations

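The split between replicates 1 and 2 and replicates 3 and 4 was also seen in genes that work with the 9 factors. Of the 27 other network regulators, 19 (70.4%) were higher in replicates 3 and 4 in both groups, beside 30.3% of all genes, and 3 (11.1%) were lower. Hhex, a homeobox factor of the early liver bud, stood at 8.50, 8.45, 8.81 and 8.84 in pcDNA replicates 1 to 4 and at 8.45, 8.22, 8.96 and 9.04 in pIGrhl2 replicates 1 to 4. Its groups overlapped, and the shift by replicate number was 0.35 in pcDNA and 0.67 in pIGrhl2 cells, compared with a plasmid difference of 0.017. Onecut2 shifted by 0.42 and 0.55, and Ttr, a plasma carrier of thyroid hormone, by 0.25 and 0.53. Apob shifted the other way, by -0.35 and -0.44. These genes were chosen after their values were seen, and what the replicates share was not tested.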
